A study of Oryza sativa with 4 samples.

Results

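Basic leucine zipper (bZIP) proteins are transcription factors that hold DNA with a basic stretch of residues and pair, as homodimers or heterodimers, through a neighbouring zipper of leucines. In plants many of them bind G-boxes and abscisic acid (ABA) responsive elements, and families of bZIP factors are known for ABA and drought responses, light responses, salicylic acid signalling, seed storage and leaf form. ABA-type bZIP factors are largely switched on by phosphorylation, through SnRK2 kinases that protein phosphatases 2C hold inactive until ABA is bound, so that their activity need not follow their transcript level. The transcripts of this family were read in rice plants that overexpress OsC3H10, a CCCH tandem zinc finger gene also called OsTZF8. A gene was taken as a member when the RAP-DB description of at least 1 of its transcripts named bZIP, a basic leucine zipper or a G-box binding factor. By that rule 49 of the 31414 listed genes were members, with 54 matching transcripts of 37972, and each gene was represented by its matching transcript of highest mean level.

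The OsC3H10OX group comprised 2 libraries from whole 3-week-old plants of line 20, in the T4 generation, which carry OsC3H10 under the PGD1 promoter, active in the whole plant body. The non-transgenic (NT) group comprised 2 libraries from whole plants of the same age. Both groups were of cultivar Nakdong and were grown in soil with no stress treatment. Only 1 transgenic line was sequenced, and the level of OsC3H10 itself was not analysed here. Levels are in FPKM, read fragments scaled by transcript length and by the mapped fragments of the library, and differences are log2 fold changes, OsC3H10OX minus NT, on a log2(FPKM + 1) scale that understates changes of low transcripts.

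Library depth, recovered from the steps between low values, was 41.2 and 38.0 fragments per kilobase at 1 FPKM in the OsC3H10OX libraries, against 36.7 and 56.7 in the NT libraries. Levels of the leaf transcript for the small subunit of ribulose bisphosphate carboxylase were 736 and 763 FPKM in OsC3H10OX, against 413 and 285 FPKM in NT. The root transcript RCc3 had 265 and 272 FPKM in OsC3H10OX, against 392 and 390 FPKM in NT. Neither was called (limma, adjusted p = 0.119 and 0.155), and the 10 chlorophyll a-b binding genes summed to 7412 and 8145 FPKM in OsC3H10OX, against 6409 and 6260 FPKM in NT. The leaf transcripts were thus higher and RCc3 lower in both OsC3H10OX libraries, and the part of this in the bZIP differences was not tested. In whole plants, fewer cells of a type and less RNA per cell cannot be told apart, and neither can the genotype and any batch in which a group was grown or sequenced.

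The family lay at similar levels in the 2 groups. The 49 genes summed to 653 and 686 FPKM in OsC3H10OX, against 685 and 694 FPKM in NT. They were spread over all 12 chromosomes. Their mean levels ran from 0.0350 to 148 FPKM with a median of 8.32, and 2 genes were at 100 FPKM or more, 18 at 10 to 100, 19 at 1 to 10 and 10 below 1. In all, 40 members reached the minimum for the test, 1 FPKM in at least 2 libraries, and 9 did not.

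No bZIP gene was called, in either direction, by limma at an adjusted p under 0.05. Of all 30449 tested transcripts, 0.647% were called higher and 0.841% called lower in OsC3H10OX. The smallest adjusted p of a member was 0.155. At an unadjusted p under 0.05, 1 member was higher and 4 were lower, which is 5 of 40 against 8.35% higher and 9.36% lower over all tested transcripts. All 14 alternative ways of processing or testing the values, among them a test with each transcript's own spread, likewise called 0 members. Some of them called few transcripts of any kind, so that 0 members there adds little. The share called over all tested transcripts was 0.00985% with each transcript's own spread and 0.0821% with the replicate number as a block. No member reached 2-fold, where 1.8% of all listed transcripts were at least 2-fold higher and 1.79% at least 2-fold lower. The p-values measure the spread between these libraries, and with 2 libraries in each group the exact permutation test of a single gene has a smallest p of 0.333.

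The intervals, which are not adjusted for the number of tests, say how large a difference these libraries leave possible. The 95% interval lay inside 2-fold in both directions for 37 of the 40 tested members, against 83.6% of all tested transcripts. It lay inside 1.5-fold for 18 of the 40, against 52.4% of all tested transcripts. The members' log2 fold changes had a median of -0.01 and an SD of 0.26, and ran from -0.58 to 0.72, while those of all tested transcripts had a median of 0.00 and an SD of 0.47. A difference under 0.5 on the log2 scale was found for 37 members, or 92.5%, against 86.2% of all tested transcripts. In the normalized log2 values, both OsC3H10OX libraries lay above both NT libraries for 9 members and below for 10, and the groups overlapped for 21. Over all tested transcripts these shares were 26.8% above and 26.1% below.

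**Figure D1:**
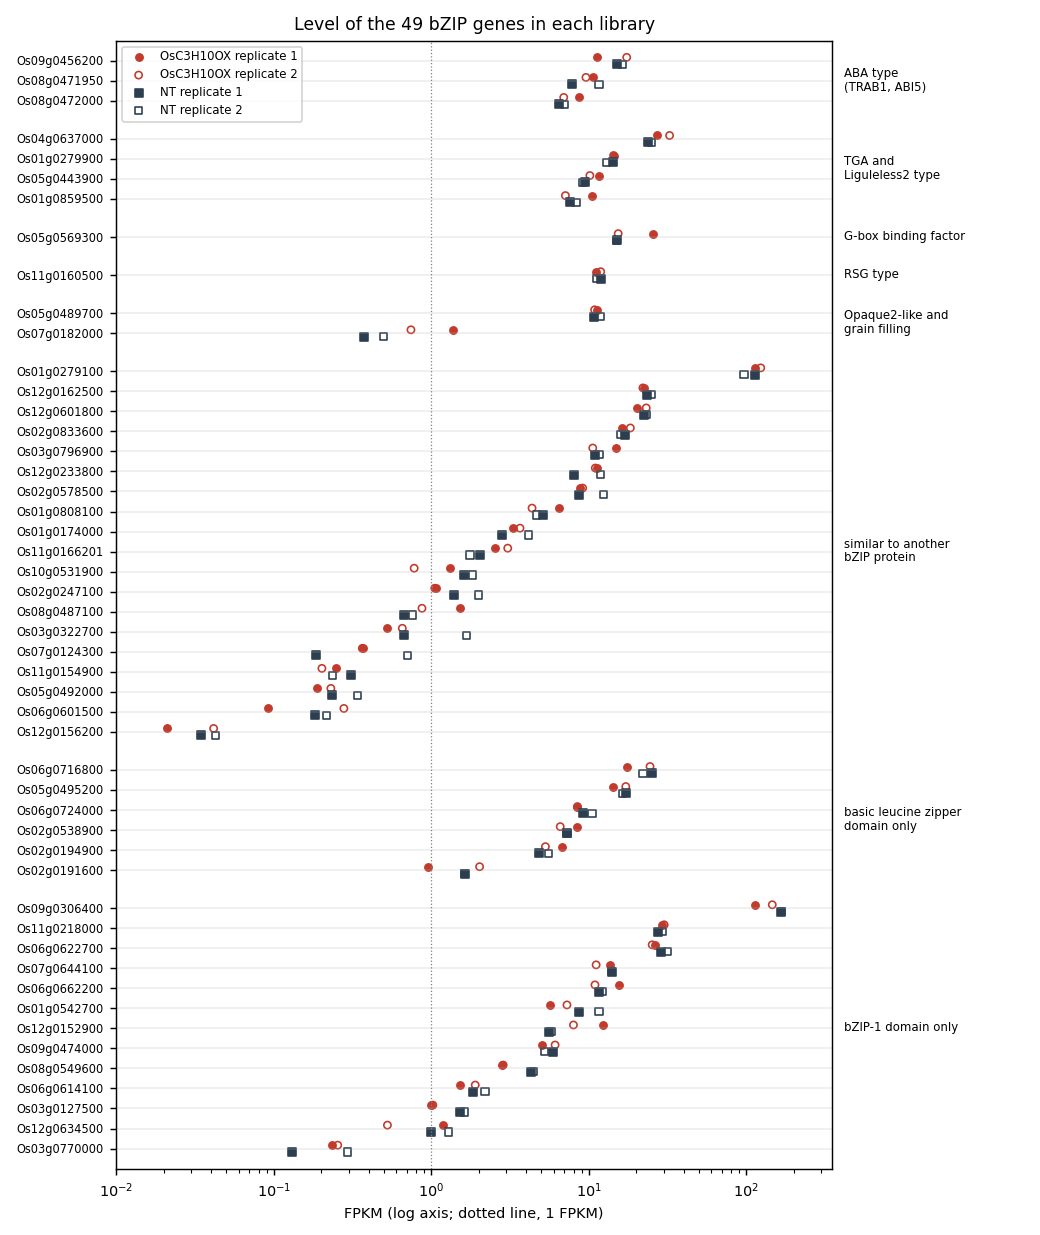
Level of each of the 49 bZIP genes (rows, ordered by annotated role and then by mean level) in FPKM on a log axis, with 1 point per library: circles for OsC3H10OX and squares for NT, filled for replicate 1 and open for replicate 2. Levels span 0.0350 to 148 FPKM on average, and for most genes the 4 points lie close together; the 9 untested genes sit around or left of the dotted line at 1 FPKM.

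ABA-type members had 3 genes, all at moderate levels and none called. The gene described as similar to ABI5, which in Arabidopsis acts in the ABA response of seeds and seedlings, is Os09g0456200 on chromosome 9 (17190096 to 17194010, IRGSP-1.0). It had 11.3 and 17.4 FPKM in OsC3H10OX, against 15.2 and 16.4 FPKM in NT, so the OsC3H10OX libraries lay on either side of NT. Its log2 fold change was -0.15, with a 95% interval of -0.76 to 0.46. Without OsC3H10OX replicate 1 it was 0.15, and without OsC3H10OX replicate 2 it was -0.45. Its direction therefore rests on which OsC3H10OX library is read.

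TRAB1, a rice factor known to bind ABA responsive elements, was given by 2 gene models, Os08g0471950 and Os08g0472000, which lie 1280 bases apart on chromosome 8. Os08g0471950 had 10.6 and 9.59 FPKM in OsC3H10OX, against 7.82 and 11.6 FPKM in NT, and the groups overlapped. Os08g0472000 had 8.71 and 6.93 FPKM in OsC3H10OX, against 6.48 and 7.02 FPKM in NT. Its groups overlapped in FPKM, but not in the normalized log2 values, where both OsC3H10OX libraries lay above NT. Their log2 fold changes were 0.08 and 0.19. The split of fragments between neighbouring models of the same description is uncertain, and both models had similar levels.

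TGA and Liguleless2 type members all had a log2 fold change above 0. The only other named role group with more than 1 tested gene, the ABA type, had 2 of 3 above 0. The 4 changes were small, from 0.10 to 0.30, and none was called. TGA factors are known in Arabidopsis to work with NPR1 in salicylic acid responses, and Liguleless2 is known in maize for the ligule and auricle at the base of the leaf blade. Os04g0637000 (chromosome 4, 32403356 to 32412036), described as similar to bZIP52 with a minor transcript described as Liguleless2, was the most abundant of the 4. It had 27.2 and 32.6 FPKM in OsC3H10OX, against 23.7 and 25.1 FPKM in NT, so that both OsC3H10OX libraries lay above NT. Its log2 fold change was 0.30 (95% interval -0.03 to 0.63, limma adjusted p = 0.313).

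The gene described as TGA6, Os01g0279900, had 14.6 and 14.4 FPKM in OsC3H10OX, against 14.3 and 12.9 FPKM in NT. The 4 values were close, with a log2 fold change of 0.10 and an interval of -0.19 to 0.39. Os05g0443900, similar to Liguleless2, had 11.5 and 10.2 FPKM in OsC3H10OX, against 9.47 and 9.15 FPKM in NT, a log2 fold change of 0.21. Os01g0859500, also similar to Liguleless2, had 10.5 and 7.10 FPKM in OsC3H10OX, against 7.59 and 8.40 FPKM in NT, and its groups overlapped. Its log2 fold change of 0.11 turned to -0.13 without OsC3H10OX replicate 1, while those of the other 3 genes kept their direction whichever library was left out. In sum the 4 genes came to 63.8 and 64.2 FPKM in OsC3H10OX, against 55.0 and 55.5 FPKM in NT.

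The member described as G-box binding factor 1, Os05g0569300 (chromosome 5, 28334779 to 28339606), differed in 1 library only. G-box binding factors of Arabidopsis are known for binding the G-boxes of light-regulated promoters, among them those of the small subunit of ribulose bisphosphate carboxylase. The gene had 25.6 and 15.4 FPKM in OsC3H10OX, against 15.2 and 15.0 FPKM in NT, so OsC3H10OX replicate 2 was at the level of the NT libraries. Its log2 fold change was 0.39 (95% interval -0.29 to 1.07, limma adjusted p = 0.476). Without OsC3H10OX replicate 1 it was 0.04, and without OsC3H10OX replicate 2 it was 0.74 with an adjusted p of 0.0613, a fit that assumes the lone library to vary like the others.

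The member related to RSG, a tobacco factor that activates gibberellin synthesis and is held by 14-3-3 proteins, hardly differed. Os11g0160500 had 11.1 and 11.9 FPKM in OsC3H10OX, against 12.0 and 11.2 FPKM in NT. Its log2 fold change was -0.00, with an interval of -0.30 to 0.29.

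Opaque2-like factors are known in cereals for switching on seed storage genes in the endosperm. Os05g0489700, similar to the Arabidopsis Opaque2-like protein BZO2H3, had 11.3 and 10.9 FPKM in OsC3H10OX, against 10.8 and 11.8 FPKM in NT, a log2 fold change of -0.01 with an interval of -0.28 to 0.26. Os07g0182000, described as an activator of grain filling, was near the lower limit of measurement. It had 1.37 and 0.74 FPKM in OsC3H10OX, against 0.37 and 0.50 FPKM in NT, and both OsC3H10OX libraries lay above NT. Those levels correspond to about 91 and 45 fragments in OsC3H10OX, against 22 and 45 in NT. It was not tested, and its log2 fold change was 0.49. With 0.1 FPKM added in place of 1, and without normalization, it was 1.07. That made the gene the only member past 2-fold in any setting.

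The largest difference upward was that of Os12g0152900, known in the annotation only by its bZIP-1 domain (chromosome 12, 2605806 to 2612489). It had 12.3 and 7.99 FPKM in OsC3H10OX, against 5.59 and 5.76 FPKM in NT, a mean of 10.2 ± 3.07 FPKM in OsC3H10OX and 5.67 ± 0.118 FPKM in NT (SD, n = 2 each). Both OsC3H10OX libraries were above NT, but they differed from each other by more than the NT libraries did. The log2 fold change was 0.72 with a 95% interval of 0.16 to 1.28, and it was not called (limma, adjusted p = 0.218). It was 0.45 without OsC3H10OX replicate 1 and 0.99 without OsC3H10OX replicate 2, where the adjusted p of 0.0501 was the smallest of any member in any setting. The gene overlaps Os12g0152800, a rhodanese-like domain gene, by 682 bases, and fragments of the shared stretch could not be told apart. That neighbour had 2.56 and 3.72 FPKM in OsC3H10OX, against 2.74 and 1.56 FPKM in NT. The starts of chromosomes 11 and 12 are a known duplicated block in rice, so that reads of Os12g0152900, and of members such as Os11g0160500 and Os12g0162500, could also be split with near-identical copies.

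Downward, the clearest separation was that of Os08g0549600, another gene with only a bZIP-1 domain description (chromosome 8, 27576170 to 27576997). It had 2.81 and 2.86 FPKM in OsC3H10OX, against 4.31 and 4.48 FPKM in NT, and the libraries of each group nearly coincided. These levels were read from only 61 to 144 fragments in a library. The log2 fold change was -0.50 with an interval of -0.80 to -0.20, and its adjusted p of 0.155 was the lowest in the family. Os01g0542700, also described by its bZIP-1 domain (chromosome 1, 20034161 to 20035006), had the lowest log2 fold change of the tested members and was not called either. It had 5.68 and 7.26 FPKM in OsC3H10OX, against 8.73 and 11.6 FPKM in NT, a log2 fold change of -0.58 with an interval of -1.11 to -0.05 and an adjusted p of 0.255. With 0.1 FPKM added in place of 1, and without normalization, it was -0.64, and Os10g0531900 was then lower among the tested members, at -0.71. Both OsC3H10OX libraries of these genes lay below both NT libraries.

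A further 3 members with low levels lay below NT in both OsC3H10OX libraries. Os03g0127500 (bZIP-1 domain) had 0.99 and 1.02 FPKM in OsC3H10OX, against 1.52 and 1.63 FPKM in NT. Os10g0531900 (bZIP-like) had 1.31 and 0.78 FPKM in OsC3H10OX, against 1.61 and 1.82 FPKM in NT. Os02g0247100 (bZIP family protein) had 1.07 and 1.05 FPKM in OsC3H10OX, against 1.39 and 1.99 FPKM in NT. Their log2 fold changes were -0.36, -0.43 and -0.38, with limma adjusted p of 0.240, 0.279 and 0.294, so none was called. These 3 genes were read from 31 to 137 fragments in a library. Os11g0166201, another bZIP family protein, went the other way, with 2.55 and 3.06 FPKM in OsC3H10OX, against 2.05 and 1.76 FPKM in NT, and a log2 fold change of 0.38 (limma adjusted p = 0.313). It was read from 21 to 32 fragments in a library.

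**Figure D2:**
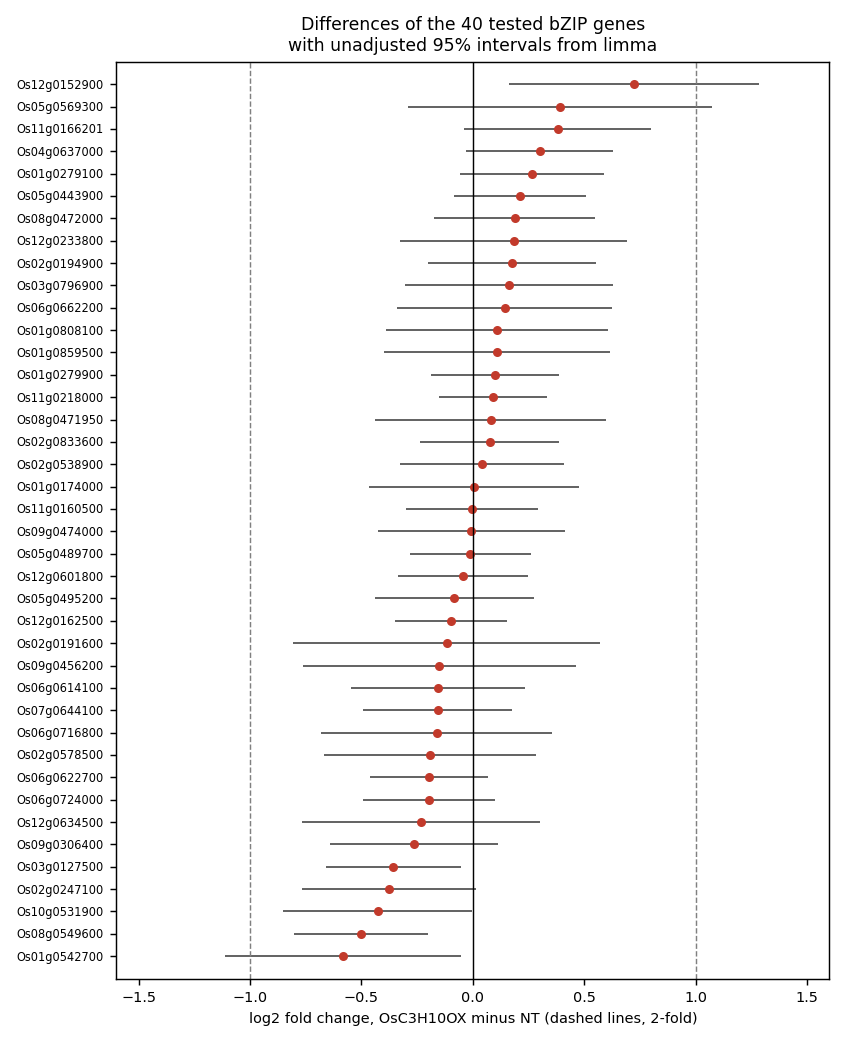
Log2 fold change, OsC3H10OX minus NT, of the 40 tested bZIP genes (points, sorted by size) with unadjusted 95% intervals from limma (lines); dashed lines mark 2-fold. Of the 40 intervals, 37 stay inside the dashed lines, and the other 3 belong to Os12g0152900, Os05g0569300 and Os01g0542700.

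A large part of the bZIP transcript level came from 2 genes. Os09g0306400 (bZIP-1 domain, chromosome 9, 7871588 to 7873655) and Os01g0279100 (chromosome 1, 9874378 to 9876678) together gave 38.3% of the family's summed mean FPKM. Os09g0306400 had 114 and 146 FPKM in OsC3H10OX, against 166 and 167 FPKM in NT. Both OsC3H10OX libraries were below NT, but they differed widely from each other, and the log2 fold change was -0.26 with an interval of -0.64 to 0.11. Without OsC3H10OX replicate 1 it was -0.10. In all, 6 tested members overlapped another listed gene. For Os09g0306400 this was Os09g0306232, a hypothetical gene with 1.33 and 3.33 FPKM in OsC3H10OX, against 1.2 and 1.5 FPKM in NT, far below the member itself.

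Os01g0279100, described as similar to CAT103, had 114 and 124 FPKM in OsC3H10OX, against 113 and 96.7 FPKM in NT, a log2 fold change of 0.27 with an interval of -0.06 to 0.59. A second transcript of this gene is described as magnesium-protoporphyrin IX monomethyl ester cyclase, an enzyme of chlorophyll synthesis. That transcript made up 28.0% and 28.9% of the gene's FPKM in OsC3H10OX, against 31.6% and 28.5% in NT. The gene's descriptions thus name both a transcription factor and an enzyme, and its place among the bZIP genes is uncertain. Without it, Os09g0306400 stood alone above 100 FPKM.

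The next 3 genes in level were Os11g0218000, Os06g0622700 and Os04g0637000, with mean levels over the 4 libraries of 29.0, 28.1 and 27.1 FPKM. Their ranges over the libraries overlapped, so their order is not set by these data. Os11g0218000 (bZIP-1 domain) had 29.2 and 30.1 FPKM in OsC3H10OX, against 27.7 and 29.1 FPKM in NT, and its interval of -0.15 to 0.33 was the narrowest of all tested members. Os06g0622700 (bZIP-1 domain) had 26.5 and 25.3 FPKM in OsC3H10OX, against 28.9 and 31.8 FPKM in NT, a log2 fold change of -0.20 with an adjusted p of 0.385.

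Counted by description, with the members above included, the groups overlapped to different degrees. Of the 12 tested genes known only by a bZIP-1 domain, 2 lay above NT in both OsC3H10OX libraries, 6 lay below and 4 overlapped. Over all tested transcripts, 26.8% lay above and 26.1% below, and the rest overlapped. The log2 fold changes of the 12 genes had a median of -0.18. The 6 genes known only by a basic leucine zipper domain ran from -0.20 to 0.18, and 5 of them overlapped. The 12 tested genes described as similar to some other bZIP protein ran from -0.43 to 0.38 with a median of 0.04, and 7 of them overlapped. Beside Os07g0182000, the untested members were Os03g0322700, Os03g0770000, Os05g0492000, Os06g0601500, Os07g0124300, Os08g0487100, Os11g0154900 and Os12g0156200. The highest value of any of these 9 in a library was 1.68 FPKM, that of Os03g0322700 in NT replicate 2.

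By the median gap, the OsC3H10OX libraries differed from each other more than the NT libraries did. By the Pearson correlation of log2 values over expressed transcripts they did not, with 0.971 in OsC3H10OX and 0.964 in NT. Over the 40 tested members the median gap between replicates was 0.25 on the log2 scale in OsC3H10OX and 0.095 in NT, against 0.17 and 0.12 over all tested transcripts. The difference between the groups was larger than the gaps within both groups for 14 of 40 members, against 38.9% of all tested transcripts. The gaps had no common direction, since OsC3H10OX replicate 1 was above replicate 2 for 18 of the 40 tested members.

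In 6 members more than 1 transcript was listed. In Os06g0724000 (chromosome 6, 30754644 to 30758412) the second transcript, whose description does not name bZIP, made up 10.2% and 8.0% of the gene's FPKM in OsC3H10OX, against 19.3% and 17.5% in NT. It had 0.95 and 0.74 FPKM in OsC3H10OX, against 2.21 and 2.22 FPKM in NT, and was not called (log2 fold change -0.81, limma adjusted p = 0.0738). The bZIP transcript of the gene had 8.37 and 8.47 FPKM in OsC3H10OX, against 9.24 and 10.5 FPKM in NT. Os12g0233800 had 3 listed transcripts, and its main one made up 48.3% and 53.0% in OsC3H10OX, against 39.9% and 57.0% in NT, so that the shares overlapped.

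The genes beside each member were read for calls of their own. A called gene lay among the 10 tested genes on either side of 10 of the 40 members, or 25.0%, against 21.5% of all 25882 tested genes with a place on the 12 chromosomes. The closest was a non-coding transcript, Os05g0495250, 748 bases from Os05g0495200. Around Os12g0152900, 2 of 20 neighbours were called, both higher in OsC3H10OX. The nearer of them was Os12g0154700, a germin-like gene 76268 bases away with a log2 fold change of 1.61, and the genes in between were not called. For the TRAB1 and ABI5 type members, the closest called genes were AP2 domain genes similar to RAP2.6, none of them adjacent. Os08g0474000, with -1.89, lay 118098 and 113012 bases from the TRAB1 models. Os09g0457900, with -2.48, lay 112088 bases from the ABI5 type gene. The same held for a TGA and Liguleless2 type member, Os04g0637000, where Os04g0610400, with -2.05, lay 1463195 bases away.

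**Figure D3:**
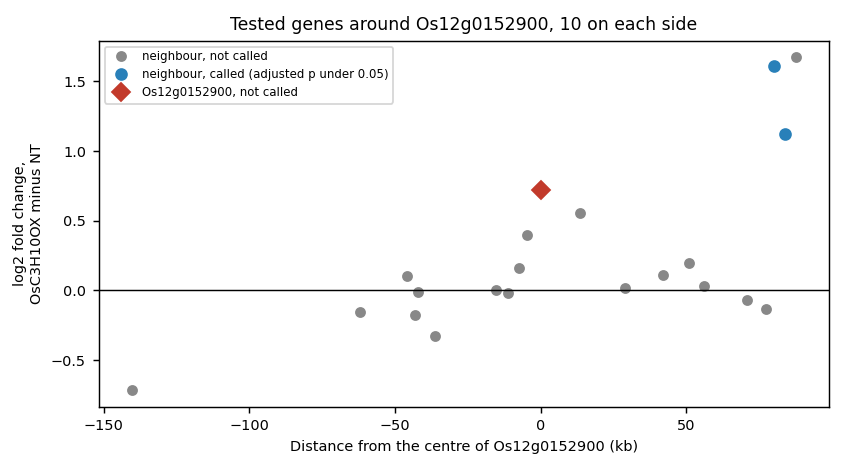
Log2 fold change, OsC3H10OX minus NT, of Os12g0152900 (diamond) and of the 10 tested genes on each side, by distance in kilobases from its centre; blue points are called genes. The 2 called genes lie near the right edge, and the tested genes between them and Os12g0152900 run from -0.13 to 0.56.

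Families with members that act with bZIP factors, taken whole by annotation words, were also mostly not called. The shares over all tested transcripts were 0.647% called higher and 0.841% called lower. At an unadjusted p under 0.05 (limma) they were 8.35% higher and 9.36% lower. Of 10 SnRK2 kinases, some of which phosphorylate ABA-type bZIP factors, 0 were called, with 1 higher and 1 lower at an unadjusted p under 0.05 (limma). Of 53 tested protein phosphatases 2C, some of which restrain such kinases, 0 were called, with 5 higher and 5 lower at that level. Families that include cofactors of TGA factors gave 0 calls among 2 NPR1-type genes and 11 glutaredoxins, where 1 glutaredoxin was lower by unadjusted p. Among 6 tested 14-3-3 genes 0 were called, also by unadjusted p. Of 8 genes of light signalling around the bZIP factor HY5, 0 were called and 2 were higher by unadjusted p, at a median log2 fold change of 0.29. Of 13 endoplasmic reticulum folding genes, the targets of bZIP factors of the unfolded protein response, 0 were called, with 2 higher and 1 lower by unadjusted p. Of 7 seed storage genes 0 were called and 2 were lower by unadjusted p.

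Calls among these lists were in 2 of them. Of 19 tested LEA and dehydrin genes, common targets of ABA-type bZIP factors, 1 was called higher and 0 lower. By unadjusted p 6 were higher and 3 lower, against 8.35% higher and 9.36% lower over all tested transcripts. Of the tested LEA and dehydrin genes 5, or 26.3%, differed by at least 2-fold, against 4.03% of all tested transcripts, and the median of the list's log2 fold changes was 0.09. The called gene, Os01g0705200, had 3.48 and 3.90 FPKM in OsC3H10OX, against 0.39 and 0.55 FPKM in NT. The call was lost without OsC3H10OX replicate 1, without NT replicate 1 and without NT replicate 2, where fewer transcripts of any kind were called. Without OsC3H10OX replicate 2 more genes were called, both in this list and over all tested transcripts. Of 4 tested enzymes of momilactone and phytocassane synthesis, diterpenoids under the control of a TGA-type bZIP factor in rice, 3 were called higher. All 4 lay above NT in both OsC3H10OX libraries. Over all tested transcripts 0.647% were called higher and 0.841% lower, and 26.8% lay above NT in both OsC3H10OX libraries.

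The median log2 fold change of these 4 enzymes was 1.18, against 0.00 over all tested transcripts. Os04g0178300, a syn-copalyl diphosphate synthase, had 8.34 and 8.41 FPKM in OsC3H10OX, against 3.29 and 2.92 FPKM in NT (log2 fold change 1.20, limma adjusted p = 0.0368). The calls were close to the threshold. They numbered 1 without OsC3H10OX replicate 1 and 1 without OsC3H10OX replicate 2, and 0 without NT replicate 1, without NT replicate 2, with no filter on low values and with each transcript's own spread. They numbered 1 with a filter of 5 FPKM, with 0.1 FPKM added and without normalization.

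Factors of the bZIP class that carry other names, such as HBP-1a, HBP-1b, RF2b, VIP1, RISBZ4 and HY5, gave 0 calls among 22 tested genes. Their median log2 fold change was -0.00, with 1 gene higher and 1 lower by unadjusted p. Of the 26 listed, 1 untested gene was at least 2-fold lower, as were 1.79% of all listed transcripts. HY5, which promotes light responses in Arabidopsis, had 3.46 and 6.16 FPKM in OsC3H10OX, against 5.75 and 8.46 FPKM in NT (Os02g0203000), and its groups overlapped. Other large families of transcription factors had few or no called genes, where 0.647% of all tested transcripts were called higher and 0.841% lower. The calls were 1 higher and 1 lower of 71 WRKY genes, 1 higher and 1 lower of 89 bHLH genes, 1 higher and 0 lower of 102 MYB genes, and 0 of 50 NAC genes. By unadjusted p, 8.35% of all tested transcripts were higher and 9.36% lower. Of the WRKY genes 15 were higher and 8 lower, and of the bHLH genes 5 were higher and 17 lower. Of the MYB genes 13 were higher and 13 lower, and of the NAC genes 4 were higher and 4 lower. The calls in these families changed with the library that was left out, in fits with 1 library in a group. The calls over all tested transcripts changed from fit to fit as well, so these shifts are not a result about the families. The SD of log2 fold changes was 0.26 in the bZIP genes, against 0.52 in WRKY, 0.48 in NAC, 0.42 in bHLH and 0.40 in MYB genes. Other lists were as narrow or narrower, with an SD of 0.24 in protein phosphatases 2C, 0.25 in SnRK2 kinases, 0.23 in bZIP-type factors of other names and 0.20 in glutaredoxins. Whether these spreads differ was not tested.

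**Figure D4:**
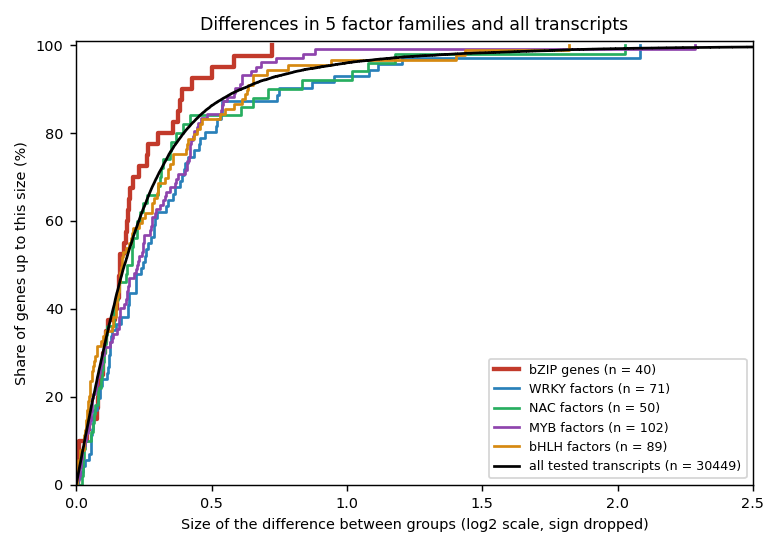
Cumulative share of genes (y axis, in percent) by the size of their log2 fold change between OsC3H10OX and NT with the sign dropped (x axis), for the 40 tested bZIP genes, 4 other families and all 30449 tested transcripts; the x axis ends at 2.5. The bZIP line reaches 100% at 0.72, while those of the other families and of all transcripts extend further right.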

How the data were processed

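Whole-plant libraries of OsC3H10OX and NT (TruSeq v2, 2 each) were used, with groups from the sample labels. After trimming (Trimmomatic 0.32), the authors aligned reads with TopHat against IRGSP-1.0 and RAP-DB gene models, and deposited per-library FPKM of every transcript; the FPKM tool is not given in the sources used here. The deposited log2 values were, on testing, log2(FPKM + 1) after quantile normalization. The authors' own comparison (signed fold change score, p-value, means and SDs of log2 values) was also deposited and was not used.

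Log2 fold changes were tested with limma 3.58.1 (R 4.3.3; mean-variance trend, Benjamini-Hochberg adjustment, called under 0.05) on the deposited log2 values of the 30449 transcripts that reached 1 FPKM in 2 or more libraries, since FPKM values are not counts. Values near 0 fell on whole fragments for 91.6% to 92.7% of low values (tolerance 0.05 fragments), which gave depth. Tables were made with Python 3.11.15 and pandas 2.3.3, and the test was checked on simulated data. Replicate numbers are labels only: the deviations of the replicate 1 libraries had a correlation of -0.021 over transcripts. Named members were those with the 10 smallest p-values, the 5 largest changes each way, the 5 highest levels, the most abundant of each named role, and any called or 2-fold different. The members, the gene lists and their annotation words were chosen with earlier results of these data known, and immunoglobulin descriptions were left out of the seed storage list. OsC3H10 was not analysed here. Alternatives were another filter, pseudocount and normalization, FPKM summed per gene, other variance settings, a replicate block and each library left out. The other pseudocount, 0.1 FPKM, was used on values without normalization.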

Additional observations from a re-analysis of the deposited data

How the results depend on the processing

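No bZIP gene was called under any of the 14 alternatives, and the smallest adjusted p of a member ranged from 0.0501 (without OsC3H10OX replicate 2) to 0.617 (without NT replicate 2), where no transcript at all was called. The numbers of members at least 2-fold different stayed at 0, except for 1 higher with log2(FPKM + 0.1) without normalization, Os07g0182000. Leaving out a library moved Os09g0456200 between -0.45 and 0.15 and Os11g0160500 between -0.068 and 0.058 on the log2 scale, which turned their direction, and the other 14 named members kept theirs. Of all 40 tested members, 18 changed direction in at least 1 of these settings, 12 of them without OsC3H10OX replicate 1. With the replicate number as a block, 0 members were called higher and 0 lower, the smallest adjusted p of a member was 0.233, and calls over all transcripts fell to 17 higher and 8 lower, against 197 and 256 without the block. With only 2 pairs, the numbers do not pair the libraries. With each transcript's own spread, calls over all transcripts numbered 1 higher and 2 lower, and with no filter 58 and 68. The unadjusted 95% interval of a typical member reached 0.38 on each side on the log2 scale, and a call needs more than that, since differences of 0.72 and -0.58 were not called. With 2 libraries a group, 0 calls among the members do not show that their levels were equal.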
